A study of Homo sapiens with 6 samples.

Results

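Nucleoporins are the proteins that build the nuclear pore complex, and nuclear transport receptors carry cargo through it. The genes of both classes were chosen by name from a table of gene-level RNA-seq counts. Protein-coding genes were taken whose symbols begin with NUP, KPNA, KPNB, IPO, XPO or TNPO as these families are numbered (XPOT included), together with TPR, POM121, NDC1, AAAS, SEH1L and RANBP2. The rule found 52 genes among 58735 in the table, of which 19951 are protein-coding, and used no measured value.

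The 6 libraries came from RPE-1, an established line of human retinal pigment epithelial cells. These cells carry Cetn2, a centriole protein, tagged with GFP, and PLK4, the kinase that starts centriole duplication, under an rtTA-driven doxycycline promoter. In 3 libraries the cells had received an siRNA against SON (siSON) and in the other 3 a scramble siRNA (siControl). Doxycycline at 1 µg/mL switched PLK4 on in every library, so both groups share the induction and no uninduced cells were analysed here. SON is a nuclear speckle protein that helps the splicing machinery to remove introns. The question was which mRNAs are more or less abundant once SON is depleted. The labels do not say whether replicates were separate cultures, so p-values measure the spread between these libraries, which may be technical. RNA was measured in bulk, so fewer cells that express a gene and less of its RNA per cell cannot be told apart.

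Each pore is a symmetric ring of many protein copies set in the nuclear envelope. Stacked Y-shaped complexes form its outer rings, an inner ring lines the channel, and proteins rich in phenylalanine-glycine (FG) repeats fill it. Filaments point to the cytoplasm and a basket points to the nucleus. Importins bind cargo in the cytoplasm and release it when they meet the GTPase Ran loaded with GTP in the nucleus, whereas exportins bind cargo together with RanGTP. Importin alpha proteins are adaptors that read the classical nuclear localisation signal and join KPNB1 (importin beta).

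Library totals ran from 54572365 to 69764836 counts. SON itself fell from 295.3, 312.7 and 283.9 CPM (read counts relative to the library total, TMM-scaled) in siControl to 67.96, 69.96 and 65.00 CPM in siSON. On the log2 scale SON changed by -2.14 (SE 0.06, adjusted p 6.78e-10 by edgeR's quasi-likelihood test). The 2-sided exact permutation test gave p = 0.1 for SON, the smallest it can give with 3 libraries against 3. KRT18, which RPE-1 expresses, was at 220.7 to 250.1 CPM in siControl and 572.3 to 576.2 CPM in siSON (before TMM scaling, as are the other markers). KRT8 was at 589.7 to 674.5 CPM in siControl and 656.1 to 732.6 CPM in siSON, so its groups overlapped. VIM was at 7162 to 8296 and 6051 to 6068 CPM. RPE65, a defining gene of mature pigment epithelium, was at 0 to 0.274 CPM, and TYR was at 0 in all 6 libraries. BEST1, another pigment epithelium gene, was at 8.26 to 9.12 CPM in siControl and 9.38 to 13.73 CPM in siSON, and the pigment gene PMEL was at 2.16 to 2.27 and 0.159 to 0.238 CPM. The epithelial gene EPCAM was at 0 to 0.172 CPM. COL1A1, a collagen gene taken as a fibroblast-like marker of RPE-1 itself, was at 144.3 to 160.1 CPM in siControl and 28.04 to 41.38 CPM in siSON. Markers of other cells were low and also differed between the groups. PTPRC (leukocytes) was at 1.21 to 2.10 CPM in siControl and 0.257 to 0.287 CPM in siSON, and PECAM1 (endothelium) at 1.09 to 1.37 and 0.238 to 0.813 CPM. The part of these marker differences in the results was not tested.

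With TMM scaling, most nucleoporin and transport receptor mRNAs were called higher after SON knockdown, and a few were much lower. The size of this majority depended on the scaling. Of the 52 genes, 50 passed the filter on low counts. Among these 42 (84.0%) had an adjusted p under 0.05, beside 71.7% of all 16591 genes tested and 77.4% of the 13008 that are protein-coding. The 42 comprised 32 higher (64.0% of those tested) and 10 lower (20.0%). The same shares over all genes tested were 35.2% higher and 36.5% lower, and over protein-coding genes 40.3% and 37.1%. They are also the background for the counts given by role below, where each role holds few genes. With library size alone as the scaling the split was 24 higher and 14 lower, and under cyclic loess normalization it was 26 and 12. Shares over all genes under these other scalings are not given here, so these splits have no background beside them. The median log2 fold change of the 50 genes was 0.34, against -0.027 for all genes tested and 0.028 for protein-coding genes. Library size alone shifted all log2 fold changes by a median of -0.20, and cyclic loess shifted them by 0.14. The median of the 50 genes was 0.14 with library size alone and 0.21 under cyclic loess. Under cyclic loess it thus fell while the log2 fold changes of all genes shifted up. A rise of at least 2-fold was called for 6 of the 50 (12%, beside 8.72% of all genes and 8.62% of protein-coding genes) and a fall of at least 2-fold for 2 (4%, beside 20.5% and 18.7%). The siSON and siControl libraries did not overlap for 42 of the 50 genes (84.0%, beside 75.1% and 79.9%). The 52 genes together took 0.552% to 0.567% of all counts in siControl and 0.648% to 0.696% in siSON.

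**Figure D1:**
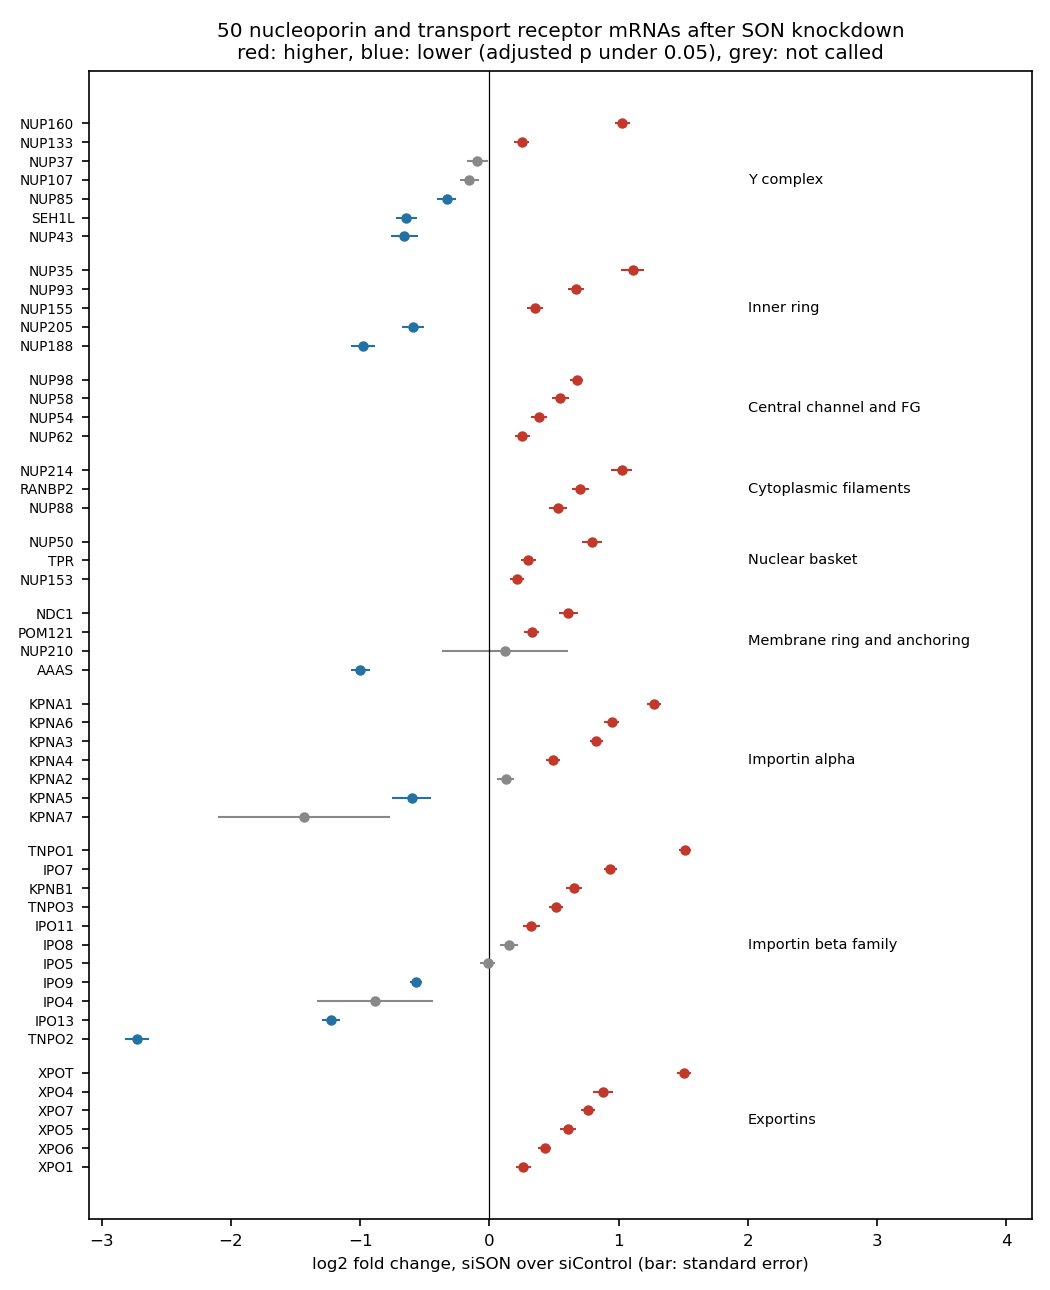
Log2 fold change of siSON over siControl (horizontal axis) for the 50 genes tested, grouped by role, with the standard error as a bar. Red points are called higher, blue points lower and grey points neither. TNPO2 lies farthest to the left at -2.73, while all 6 exportins among the 50 genes lie to the right of 0 (XPO1 changes sign under cyclic loess, to -0.077).

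The 2 transportins went in opposite directions. TNPO1 and TNPO2 encode closely related receptors that import RNA-binding proteins. TNPO1 (ENSG00000083312; GRCh38 chromosome 5, 72816312 to 72916733, plus strand; 25 exons in its principal transcript) had 166.7, 171.3 and 169.6 CPM in siControl and 465.4, 482.5 and 503.5 CPM in siSON. All siSON libraries were above all siControl libraries, and the level was 2.86 times that of the control (log2 fold change 1.52, SE 0.05, adjusted p 1.65e-09). TNPO2 (ENSG00000105576; chromosome 19, 12699194 to 12724011, minus strand; 26 exons in its principal transcript) had 124.2, 129.4 and 135.1 CPM in siControl and 20.04, 21.95 and 16.56 CPM in siSON. Its 3 siSON libraries were all far below the control, at 15.1% of the control level (log2 fold change -2.73, SE 0.09, adjusted p 2.27e-09). Per exon length, levels are given as TPM (counts per merged exon length, scaled to the same sum in every library). TNPO2 held 56.6% ± 0.859 (SD, n = 3) of the summed TPM of the pair in siControl. In siSON it held 6.45% ± 1.00 (SD, n = 3). Which of the 2 was more abundant in siControl depends on the length used. The merged exon length was 11977 bases for TNPO1 and 7029 for TNPO2, but their principal transcripts had 3028 and 5122. The summed TPM of the pair was 119 ± 5.38 (SD, n = 3) in siControl and 141 ± 6.93 (SD, n = 3) in siSON.

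Sequence before the start is shown for 3 receptors that carry the contrast: XPOT, which rose, and TNPO2 and IPO13, the 2 that fell most among those called. Each holds the part of the 250 bases before the outermost RefSeq start (GRCh38.p14) that lies before the gene's first annotated exon, read 5′ to 3′ on the gene's strand. The window of TNPO1 has no part before the start of its first annotated exon and is not shown. Capitals mark matches, on either strand, to CCAAT (the CCAAT box), CCGGAAG (an ETS site), CACGTG (an E-box), GCATGC (part of an NRF1 site), TGATGCAA (a C/EBP-ATF response element) or TATAAA (the TATA box).
XPOT: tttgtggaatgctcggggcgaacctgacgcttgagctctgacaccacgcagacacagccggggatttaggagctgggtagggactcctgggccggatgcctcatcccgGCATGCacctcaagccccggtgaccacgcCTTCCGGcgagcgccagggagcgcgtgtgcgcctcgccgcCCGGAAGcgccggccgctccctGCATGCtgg
TNPO2: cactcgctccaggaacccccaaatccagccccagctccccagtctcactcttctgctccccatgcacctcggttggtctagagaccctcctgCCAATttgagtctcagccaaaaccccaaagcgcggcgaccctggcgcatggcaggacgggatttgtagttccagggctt
IPO13: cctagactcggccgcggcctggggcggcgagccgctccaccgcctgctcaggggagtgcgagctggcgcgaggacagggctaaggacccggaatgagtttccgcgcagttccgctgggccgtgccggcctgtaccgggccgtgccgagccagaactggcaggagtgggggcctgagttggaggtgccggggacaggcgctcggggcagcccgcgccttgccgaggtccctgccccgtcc

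They lie at chr12:64404142-64404349 (plus), chr19:12724012-12724182 (minus) and chr1:43946700-43946938 (plus). Their GC content was 68.8%, 60.2% and 74.1% in that order. The XPOT stretch held 2 CCGGAAG and 2 GCATGC matches. The TNPO2 stretch held 1 CCAAT match. None of the 6 motifs was found in the IPO13 stretch. The RefSeq table lists 2 starts for TNPO2 and for TNPO1, and gene counts do not show which was used. Of the 52 genes, 46 matched the table with 59 windows of 250 bases, and XPO7, KPNA5, KPNB1, KPNA7, KPNA4 and NUP43 did not. CCGGAAG was in 14 of the 59 windows (23.7%), against 8.52% of all 35116 windows in the table. CCAAT was in 25 (42.4%) against 32.0%, CACGTG in 7 (11.9%) against 6.35% and GCATGC in 6 (10.2%) against 6.21%. TATAAA was in 4 (6.78%) against 10.7%, and TGATGCAA in 1 (1.70%) against 0.772%. The windows in the table were not limited to genes tested here. Median GC content was 62% in the member windows and 58% in all windows, and the motif shares were not adjusted for it. A match to these letters is a description and not a bound site.

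The importin beta family, with TNPO1 and TNPO2 counted in, went in both directions. Of the 11 tested, 5 rose (45.5%), 3 fell (27.3%) and 3 were not called. Over all genes tested 35.2% rose and 36.5% fell, and over protein-coding genes 40.3% and 37.1%. A split both ways is therefore not particular to this family. Its median log2 fold change of 0.15 moved to -0.043 when only library size was scaled for and to -0.065 by cyclic loess. IPO13 (ENSG00000117408; chromosome 1, 43946939 to 43968022, plus strand; 20 exons in its principal transcript), which carries cargo in both directions, had 51.14, 53.21 and 53.05 CPM in siControl and 23.61, 22.59 and 21.09 CPM in siSON. Its siSON libraries were all below the control, at 42.8% of it (log2 fold change -1.23, SE 0.07, adjusted p 3.67e-08). IPO7, a receptor for ribosomal proteins and linker histones, had 237.8, 234.9 and 250.4 CPM in siControl and 448.3, 456.2 and 480.5 CPM in siSON, with no overlap. IPO7 changed by 0.94 on the log2 scale (SE 0.05, adjusted p 3.04e-08). IPO8, the paralog of IPO7, was not called (log2 fold change 0.15, SE 0.07, adjusted p 0.0709) and its groups overlapped. It was called higher without siSON replicate 1 (0.24, adjusted p 0.00257) and without a low-count filter (0.16, adjusted p 0.0484). With library size alone and under cyclic loess IPO8 was not called and its sign was negative. IPO8 held 25.6% ± 1.42 (SD, n = 3) of the summed TPM of the pair in siControl and 16.6% ± 0.880 in siSON.

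KPNB1, the main importin beta and the partner of importin alpha, rose from 545 ± 20.6 to 857 ± 72.7 CPM (mean ± SD of 3 libraries; log2 fold change 0.65, adjusted p 2.97e-06). TNPO3, which imports SR-type splicing factors, rose from 71.0 ± 2.76 to 102 ± 2.66 CPM (log2 fold change 0.52, adjusted p 6.43e-06). IPO11 rose by 0.32 on the log2 scale (adjusted p 0.000946), a call that was lost with library size alone (0.13, adjusted p 0.111). In the annotation, 22.6% of its exonic bases also lie in exons of other genes, so its counts are less certain. IPO9, an importer of core histones, fell from 186 ± 1.24 to 125 ± 2.33 CPM (log2 fold change -0.57, adjusted p 8.74e-07). IPO5, another importer of ribosomal proteins and histones, was among the most abundant members and was not called at 433 ± 21.9 and 429 ± 24.6 CPM (adjusted p 0.847). Under library size alone and cyclic loess it was called lower, with log2 fold changes of -0.21 and -0.39. IPO4 had 18 to 34 counts in siControl and 6 to 15 in siSON (adjusted p 0.0974). Because 70.1% of its exonic bases are shared with exons of other genes, and how such reads were counted is not given in the sources used here, the level of IPO4 cannot be read from these counts.

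All 6 exportins that the naming rule found were called higher, with log2 fold changes from 0.26 to 1.51 and a median of 0.69. Of these, only XPO1 changed sign under another scaling (-0.077 under cyclic loess). CSE1L, an exportin outside that rule, was chosen after its values were seen and was called lower. Its level went from 253.5 ± 17.5 to 186.9 ± 21.6 CPM (log2 fold change -0.44, adjusted p 0.000602). XPOT (ENSG00000184575; chromosome 12, 64404350 to 64451127, plus strand; 25 exons in its principal transcript) exports mature tRNA. Its levels were 150.6, 152.9 and 150.8 CPM in siControl and 459.8, 419.4 and 410.3 CPM in siSON. The siSON libraries were 2.84 times the control (log2 fold change 1.51, SE 0.05, adjusted p 2.90e-09) and did not overlap with it. XPO4, an exporter of SMAD proteins among others, had 33.78, 33.03 and 27.77 CPM in siControl and 60.20, 56.38 and 57.46 CPM in siSON. XPO4 changed by 0.88 on the log2 scale (SE 0.08, adjusted p 1.81e-06), and the lowest siSON library was well above the highest control. XPO7, a receptor with broad cargo, had 77.35, 84.02 and 85.39 CPM against 138.1, 138.0 and 142.4 CPM, again with no overlap (log2 fold change 0.76, SE 0.06, adjusted p 3.24e-07). XPO5, the exporter of microRNA precursors, and XPO6, the exporter of actin, rose by 0.61 and 0.43 on the log2 scale (adjusted p 5.49e-06 and 1.49e-05). XPO1, also called CRM1, carries proteins with a leucine-rich export signal. It showed the smallest exportin change, from 231 ± 7.97 to 277 ± 19.3 CPM (mean ± SD of 3 libraries; log2 fold change 0.26, adjusted p 0.00198). With library size alone its call was lost (0.066, adjusted p 0.368).

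**Figure D2:**
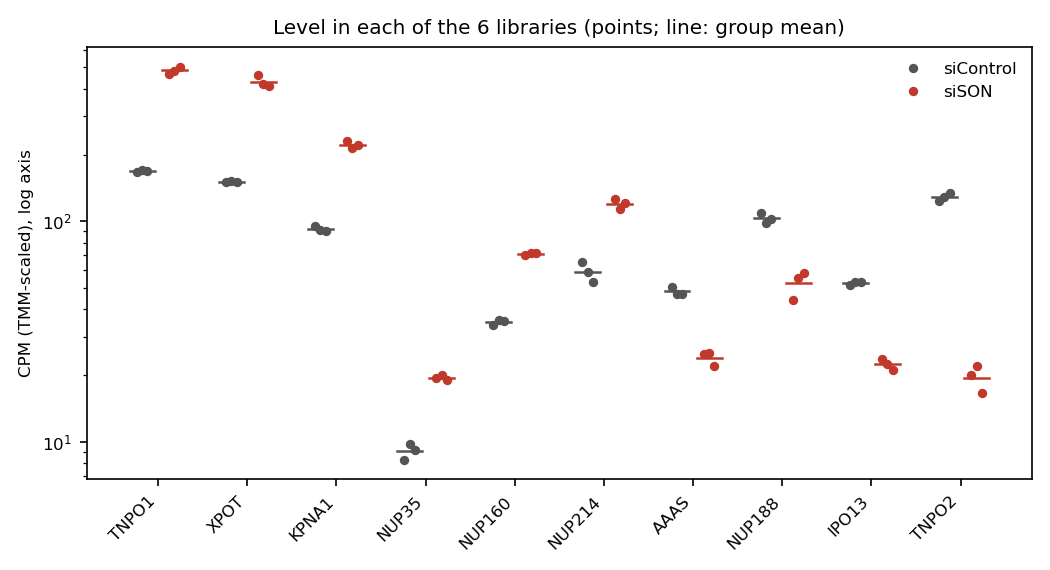
CPM on a log axis for 10 genes in each library, siControl in grey and siSON in red, with a line at each group mean. The siSON and siControl points do not overlap for any of the 10, and TNPO1 and TNPO2, which lie close together in siControl, lie far apart in siSON.

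Among the importin alpha adaptors, the levels of 4 paralogs rose while that of the most abundant one, KPNA2, did not pass the test. KPNA1 (ENSG00000114030; chromosome 3, 122421949 to 122514945, minus strand; 14 exons in its principal transcript) had 95.08, 91.34 and 90.13 CPM in siControl and 231.5, 215.1 and 222.2 CPM in siSON. That is 2.42 times the control (log2 fold change 1.27, SE 0.05, adjusted p 5.58e-09), with all siSON libraries above all controls, and 16.3% of its exonic bases are shared with exons of other genes. KPNA6 had 125.8, 133.2 and 143.9 CPM in siControl and 257.9, 252.5 and 266.2 CPM in siSON (log2 fold change 0.95, SE 0.06, adjusted p 8.66e-08). KPNA3 had 87.94, 90.53 and 87.58 CPM in siControl and 157.9, 152.2 and 162.7 CPM in siSON (log2 fold change 0.83, SE 0.05, adjusted p 8.65e-08). Neither gene's groups overlapped. KPNA4, the closest paralog of KPNA3, rose by 0.49 (adjusted p 8.44e-06). KPNA5 was scarce and fell from 7.79 ± 1.23 to 5.13 ± 0.835 CPM (mean ± SD of 3 libraries; log2 fold change -0.60, adjusted p 0.00413), a call lost under cyclic loess (-0.31, adjusted p 0.0871). KPNA7 had 1 to 30 counts per library and was not called (adjusted p 0.0733).

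KPNA2, given in full after its values were seen, had 397.2, 388.5 and 409.9 CPM in siControl and 392.7, 436.5 and 474.5 CPM in siSON, where the lowest siSON library lay within the control range. KPNA2 changed by 0.13 on the log2 scale, which did not pass the test (SE 0.07, adjusted p 0.109). It was called higher without siSON replicate 1 (0.21, adjusted p 0.00341) and lower under cyclic loess (-0.26, adjusted p 0.00376). Per exon length KPNA2 held 67.3% ± 0.506 (SD, n = 3) of the summed importin alpha TPM in siControl and 54.8% ± 2.30 in siSON. The share of KPNA1 went from 5.79% ± 0.251 to 10.5% ± 0.836, that of KPNA6 from 9.52% ± 0.490 to 13.7% ± 0.568 and that of KPNA3 from 10.5% ± 0.392 to 14% ± 0.638. These shares do not depend on the scaling between libraries. In each of these 4 genes the shares of the siSON libraries lay outside the range of the controls.

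**Figure D3:**
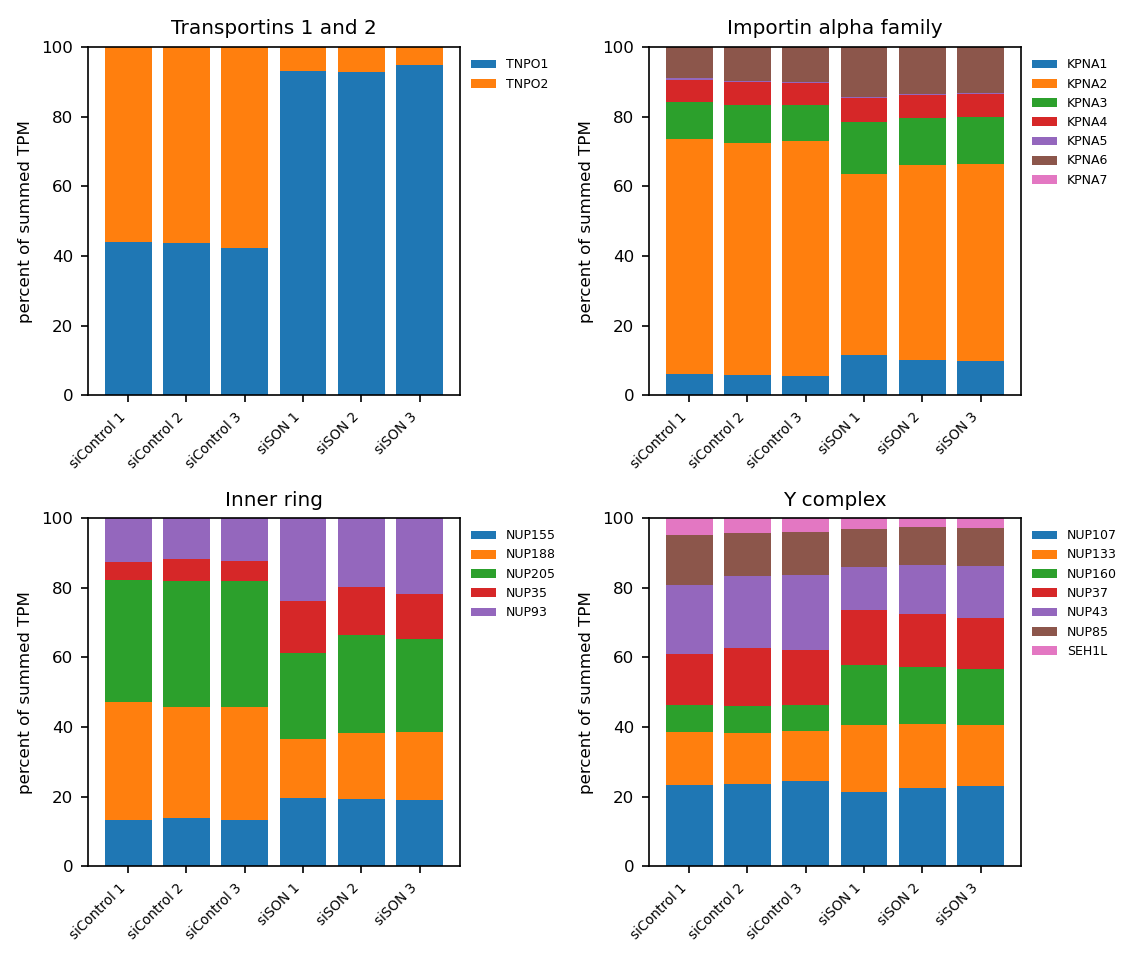
Share of each gene in the summed TPM of its family (percent, vertical axis) in each of the 6 libraries. TNPO2 goes from 56.6% of the transportin pair in siControl to 6.45% in siSON, and NUP188 from 32.7% to 18.5% of the inner ring.

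The pore scaffold changed unevenly. Of 7 Y complex genes, NUP160 and NUP133 rose, NUP43, SEH1L and NUP85 fell, and NUP107 and NUP37 were not called. NUP160 (ENSG00000030066; chromosome 11, 47778087 to 47848555, minus strand; 36 exons in its principal transcript), a large subunit of the complex, had 33.82, 35.66 and 35.27 CPM in siControl. In siSON it had 70.21, 71.90 and 71.69 CPM, without overlap and at 2.04 times the control (log2 fold change 1.03, SE 0.06, adjusted p 3.87e-08). NUP43, a small subunit with a propeller fold, had 44.37, 48.43 and 52.97 CPM in siControl and 26.12, 31.66 and 34.74 CPM in siSON (log2 fold change -0.66, SE 0.10, adjusted p 0.000160). SEH1L, which also serves in the GATOR complex of nutrient signalling, had 25.52, 23.09 and 22.95 CPM in siControl and 16.49, 14.46 and 14.89 CPM in siSON (log2 fold change -0.64, SE 0.08, adjusted p 3.48e-05). For both genes all siSON libraries were below all controls. NUP85 changed by -0.33 (adjusted p 0.00157) and NUP133 by 0.25 (adjusted p 0.00203) on the log2 scale. The NUP133 call was lost with library size alone (0.054, adjusted p 0.419) and under cyclic loess (0.11, adjusted p 0.105).

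NUP107 was at -0.15 (adjusted p 0.0777) and NUP37 at -0.093 (adjusted p 0.313) on the log2 scale, with overlapping groups. Both were called lower with library size alone (-0.35 and -0.29) and without siControl replicate 1 (-0.22 and -0.19). NUP107 was also called lower without a low-count filter (-0.15), with a mean count of at least 50 (-0.21) and under cyclic loess (-0.39). The share of NUP160 in the summed TPM of the 7 genes was 7.72% ± 0.264 (SD, n = 3) in siControl and 16.5% ± 0.506 in siSON. That of NUP43 was 20.7% ± 0.871 and 13.8% ± 1.40.

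In the inner ring all 5 genes were called, and its largest subunits fell while the others rose. NUP188 (ENSG00000095319; chromosome 9, 128947699 to 129007096, plus strand; 44 exons in its principal transcript) had 108.6, 98.62 and 102.1 CPM in siControl and 43.77, 55.38 and 57.98 CPM in siSON. Every siSON library was below every control, at 50.8% of the control level (log2 fold change -0.98, SE 0.09, adjusted p 3.37e-06). NUP205, the paralog of NUP188, fell from 107 ± 1.31 to 71.1 ± 8.98 CPM (mean ± SD of 3 libraries; log2 fold change -0.59, adjusted p 5.70e-05). NUP35 (ENSG00000163002; chromosome 2, 183117513 to 183161680, plus strand; 9 exons in its principal transcript), a small membrane-binding subunit, had 8.27, 9.71 and 9.18 CPM in siControl and 19.54, 19.99 and 19.04 CPM in siSON. These groups were far apart, with 2.16 times the control level in siSON (log2 fold change 1.11, SE 0.09, adjusted p 5.86e-07). NUP93, which links the inner ring to the FG proteins of the channel, had 55.39, 50.88 and 54.03 CPM in siControl and 85.88, 80.16 and 88.72 CPM in siSON (log2 fold change 0.67, SE 0.06, adjusted p 2.11e-06). NUP155 rose by 0.35 (adjusted p 0.000329), a call lost with library size alone (0.15, adjusted p 0.0517). Per exon length, the most abundant inner ring mRNA exceeded the least abundant by 6.31 ± 0.484 times (SD, n = 3) in siControl and by 1.94 ± 0.242 times in siSON. In TPM, NUP188 and NUP205 were the highest of the 5 in siControl, and NUP35 was the lowest in both groups. These ratios and ranks depend on the merged exon length, which was 11136 bases for NUP93 and 4046 for NUP35. Their principal transcripts had only 2741 and 1633 bases, so neither the narrowing nor the order can be taken as settled.

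All 4 genes tested of the central channel, which is filled by FG proteins, were called higher. NUP98, whose transcript also encodes the Y complex protein NUP96, had 115.2, 109.1 and 107.7 CPM in siControl and 175.6, 174.3 and 180.1 CPM in siSON (log2 fold change 0.67, SE 0.05, adjusted p 3.86e-07). NUP58 had 68.16, 67.89 and 69.53 CPM in siControl and 91.75, 104.5 and 104.8 CPM in siSON (log2 fold change 0.55, SE 0.06, adjusted p 1.22e-05). NUP54 had 32.26, 32.57 and 32.75 CPM in siControl and 42.63, 43.18 and 41.57 CPM in siSON (log2 fold change 0.38, SE 0.06, adjusted p 0.000136). The groups were separate for all 3. NUP62, which joins NUP54 and NUP58 in a channel complex, rose by 0.26 (adjusted p 0.00156), and its call was lost with library size alone (0.058, adjusted p 0.382) and under cyclic loess (0.018, adjusted p 0.766). Other genes' exons cover 21.1% of its exonic bases. NUP62CL, its X-linked relative, had 0 counts in every library, which allows a level of up to 0.0430 to 0.0550 CPM (3 counts, before TMM scaling).

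The cytoplasmic filament genes all rose, and kept that call under library size alone and cyclic loess. NUP214 (ENSG00000126883; chromosome 9, 131125561 to 131234670, plus strand; 36 exons in its principal transcript), a docking site for exported mRNA particles, had 65.61, 58.86 and 53.00 CPM in siControl and 125.7, 114.0 and 120.8 CPM in siSON. This was 2.03 times the control without overlap (log2 fold change 1.02, SE 0.08, adjusted p 4.33e-07). RANBP2, which binds RanGAP and has SUMO ligase activity, had 149.4, 146.1 and 129.2 CPM in siControl and 240.6, 227.6 and 223.7 CPM in siSON (log2 fold change 0.70, SE 0.06, adjusted p 1.60e-06). RANBP2 has near-copies in the RGPD genes. RGPD8, the most counted of them, had 55 to 129 counts per library against 9287 to 13964 for RANBP2, and the treatment of reads shared between them is not given in the sources used here. NUP88, the partner of NUP214, had 50, 52.99 and 55.52 CPM in siControl and 71.58, 75.95 and 81.94 CPM in siSON, also with no overlap (log2 fold change 0.53, SE 0.07, adjusted p 2.82e-05).

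The 3 nuclear basket genes were called higher, but only NUP50 kept this call under both other scalings. NUP50, a basket protein that helps importin alpha to release cargo, had 79.57, 78.83 and 72.79 CPM in siControl and 118.5, 137.6 and 145.2 CPM in siSON. These did not overlap (log2 fold change 0.80, SE 0.08, adjusted p 2.79e-06). TPR, the coiled-coil backbone of the basket, had 296.1, 286.4 and 261.9 CPM in siControl and 352.5, 358.9 and 330.0 CPM in siSON (log2 fold change 0.30, SE 0.06, adjusted p 0.000673). Its value was 0.11 (adjusted p 0.128) with library size alone and -0.053 (adjusted p 0.449) under cyclic loess. NUP153, which anchors TPR, had 75.03, 78.88 and 76.05 CPM in siControl and 86.91, 90.63 and 89.39 CPM in siSON (log2 fold change 0.22, SE 0.05, adjusted p 0.00333). It was not called with library size alone (0.018, adjusted p 0.780) or under cyclic loess (0.00036, adjusted p 0.995).

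Of the membrane proteins and their anchor, NDC1 and POM121 rose and AAAS fell. AAAS (ENSG00000094914; chromosome 12, 53307456 to 53324864, minus strand; 16 exons in its principal transcript) encodes aladin, which is held at the pore by NDC1 and is mutated in triple A syndrome. Its levels were 50.58, 46.92 and 46.84 CPM in siControl and 24.95, 25.26 and 22.05 CPM in siSON, with no overlap and 50.1% of the control remaining. The log2 fold change of AAAS was -0.998 (SE 0.07, adjusted p 3.64e-07). NDC1 itself had 42.57, 42.78 and 43.75 CPM in siControl and 58.62, 68.37 and 70.23 CPM in siSON (log2 fold change 0.61, SE 0.07, adjusted p 1.80e-05). The mRNAs of the anchor and of the anchored protein thus went in opposite directions. POM121, a transmembrane FG protein, had 67.72, 72.38 and 71.03 CPM in siControl and 84.58, 87.02 and 93.46 CPM in siSON (log2 fold change 0.33, SE 0.06, adjusted p 0.000417). That call was lost with library size alone (0.13, adjusted p 0.0775) and under cyclic loess (0.12, adjusted p 0.0760). Its near-identical copy POM121C was counted as deeply, with 3937 to 5799 counts, and was not called (log2 fold change 0.029, adjusted p 0.767), so the split of reads between them is uncertain. NUP210, a membrane glycoprotein of the pore, was nearly silent with 7 to 19 counts and was not called (adjusted p 0.838). Its relative NUP210L, at 0 to 8 counts, did not pass the filter.

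The other genes of nuclear transport were examined from lists of 58 genes, of which all were tested and 45 (77.6%, beside 71.7% of all genes tested and 77.4% of protein-coding genes) were called. In the Ran cycle with its adaptors, 5 of 11 rose (45.5%) and 4 fell (36.4%). These shares lie near those over protein-coding genes (40.3% and 37.1%), while over all genes tested they were 35.2% and 36.5%. RCC1, the exchange factor that loads Ran with GTP on chromatin, rose from 45.9 ± 2.41 to 132.5 ± 15.2 CPM (mean ± SD of 3 libraries; log2 fold change 1.53, SE 0.08, adjusted p 3.16e-08). NMD3, the adaptor that brings large ribosomal subunits to XPO1, rose from 49.8 ± 3.73 to 112 ± 3.01 CPM (log2 fold change 1.17, adjusted p 3.87e-08). RANGRF, a Ran-binding release factor, fell from 11.9 ± 0.826 to 1.61 ± 0.240 CPM (log2 fold change -2.88, adjusted p 1.32e-08), although 82.0% of its exonic bases overlap exons of another gene. RAN, chosen after its values were seen, was not called at 517 ± 18.7 and 493 ± 15.6 CPM (adjusted p 0.231), but was called lower with library size alone (-0.26), with a mean count of at least 50 (-0.13) and under cyclic loess (-0.46).

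Of the 6 nucleoporins that the naming rule misses, 3 rose and 1 fell. GLE1, which activates the helicase that strips exported mRNA at the cytoplasmic face, fell from 65.8 ± 1.05 to 28.2 ± 1.65 CPM (mean ± SD of 3 libraries; log2 fold change -1.23, adjusted p 2.79e-08). RAE1, an mRNA export factor that binds NUP98, rose from 31.5 ± 0.942 to 61.2 ± 4.92 CPM (log2 fold change 0.96, adjusted p 3.61e-07). AHCTF1 (ELYS), which seeds pore assembly on chromatin, rose by 0.37 (adjusted p 6.45e-05). In the mRNA export list 14 of 23 rose (60.9%) and 2 fell (8.70%). The shares over all genes tested were 35.2% and 36.5%, and over protein-coding genes 40.3% and 37.1%. The split was 6 and 7 when only library size was scaled for, and 10 and 6 under cyclic loess. THOC6 and THOC5, subunits of the THO complex, rose by 1.67 and 0.83 (adjusted p 1.94e-07 and 7.35e-07). MCM3AP, the scaffold of TREX-2, fell by 0.89 on the log2 scale (adjusted p 2.10e-07).

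Of 18 genes of the nuclear lamina and envelope, 5 (27.8%) were higher and 11 (61.1%) lower, with a median log2 fold change of -0.33. The shares over all genes tested were 35.2% and 36.5%, and over protein-coding genes 40.3% and 37.1%. TOR1AIP1, a torsin cofactor of the inner nuclear membrane, fell from 92.9 ± 5.03 to 30.7 ± 0.844 CPM (mean ± SD of 3 libraries; log2 fold change -1.60, adjusted p 4.40e-09). EMD, which encodes emerin, fell from 65.4 ± 0.435 to 32.2 ± 1.68 CPM (log2 fold change -1.02, adjusted p 7.53e-08). LEMD2, another LEM-domain protein, rose from 47.6 ± 1.80 to 83.3 ± 1.27 CPM (log2 fold change 0.81, adjusted p 2.15e-07). Whether this list differs from the nucleoporins was not tested.

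The member genes were long and exon-rich. The 50 tested had a median of 23 exons and 54293 bases of summed intron in their principal transcript, against 9 exons and 24704.5 bases for protein-coding genes tested. Their median transcript GC content was 44.1%, against 48.9%. Across the 50 genes, Spearman's rho of the log2 fold change was -0.33 with GC content and 0.43 with summed intron length. Across all protein-coding genes tested these were -0.21 (13003 genes) and 0.24 (13008 genes). With median intron length, transcript length and number of exons, rho was 0.22, 0.24 and 0.035 across the 50 genes. Across protein-coding genes these were 0.25, 0.13 and 0.045. The 50 include IPO4, KPNA7 and NUP210, which had few counts. Genes are not independent replicates, and all share the same 6 libraries, so these values are descriptions. TNPO2 had 56.2% GC and 19681 intron bases, AAAS 57.1% and 12336, and IPO13 58.2% and 17190. TNPO1 had 42.7% and 57740, and XPOT 40.9% and 40364. NUP62, with 58.4% GC and 17809 intron bases, and KPNA2, with 46.0% and 8427, were not called lower with TMM scaling. KPNA2 was called lower under cyclic loess (-0.26). Other genes that fell lay elsewhere: KPNA5 had 34.4% GC and 49369 intron bases, and NUP205 had 44.4% and 84573.

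**Figure D4:**
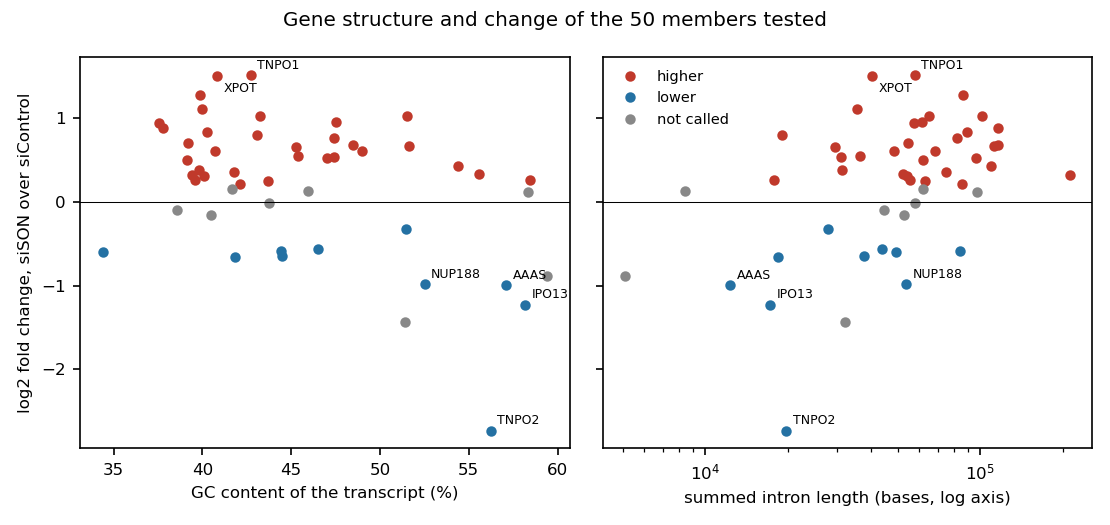
Log2 fold change of the 50 genes tested (vertical axis) against the GC content of the principal transcript (left, percent) and its summed intron length (right, bases on a log axis). Red points are called higher, blue lower and grey neither. TNPO2, AAAS and IPO13 sit at high GC content and short summed introns, while TNPO1 and XPOT lie at lower GC content. The blue point farthest to the left is KPNA5, at 34.4% GC.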

How the data were processed

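Gene-level RNA-seq was analysed in 3 siSON and 3 siControl libraries. Per gene and library, the authors deposited raw read counts as whole numbers. The submitters' processing notes name cutadapt 1.16, STAR 2.5.2a, featureCounts 1.6.2, DESeq2 1.28.1 and build hg38; strandedness of counting and how multi-mapping reads were handled are not given in the sources used here. All 58735 gene identifiers matched GENCODE release 29 (GRCh38), which supplied positions, exons and lengths; the principal transcript is the APPRIS-ranked, then longest, coding transcript. TPM was computed from the counts and the merged exon length of each gene.

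Counts were fitted in R 4.3.3 with edgeR 4.0.16 (filterByExpr with a minimum count of 10, TMM, robust quasi-likelihood test with group alone). Benjamini-Hochberg adjustment ran over the whole set of genes tested, with a threshold of 0.05. Each SE was taken as the size of the log2 fold change over √F. On simulated counts for this comparison (16227 genes after filtering) 90% of 1.5-fold and 100% of 2-fold changes were called. The simulation gave every gene the same spread (coefficient of variation 8.8%). It changed 50 genes at each fold, none of them at low CPM, whereas 71.7% of all genes were called in the data. The rates therefore do not cover members with few counts (NUP210, KPNA7 and IPO4) or so broad a change. CPM values are TMM-scaled and given as mean ± SD; 3 counts corresponded to 0.0430 to 0.0550 CPM, which covers counting error only.

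Alternatives were DESeq2 1.42.0, limma-voom and cyclic loess (limma 3.58.1), RLE and library-size scaling, other filters, each library left out, a replicate block and a test against a 1.5-fold change. Values in every library are given, in each role, for the 3 genes with the smallest adjusted p. They are also given for all called with an absolute log2 fold change of at least 1, with KPNA2 added after its values were seen. From each list of other transport genes the 3 called with the smallest adjusted p are named. RAN and CSE1L were added to these after their values were seen. The members and lists were chosen with earlier results of these data known.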

Additional observations from a re-analysis of the deposited data

How the results depend on the processing

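Of the 42 genes called, 33 kept their direction and their call under every alternative to which single genes were put (the test against a 1.5-fold change, applied to counts only, aside). Of those alternatives, DESeq2 and RLE factors changed no call among the 50 genes. The number called was 38 to 45 over these alternatives and 18 in the test against a 1.5-fold change, where the 58 other transport genes gave 15. Shares of all genes called under the alternatives are not given here, so these counts cannot be set against them. The median log2 fold change of 0.34 became 0.14 with library size alone and 0.21 under cyclic loess, and ranged from 0.32 to 0.38 when 1 library was left out. Signs reversed with library size alone for NUP210 (-0.078), KPNA2 (-0.072) and IPO8 (-0.043), and under cyclic loess for KPNA2 (-0.26), IPO8 (-0.065), TPR (-0.053) and XPO1 (-0.077). With 1 library left out, the NUP210 log2 fold change ranged from -0.17 to 0.51 and the IPO5 log2 fold change from -0.058 to 0.045. The cause was not tested. IPO4 (-1.16 without siControl replicate 3), KPNA7 (-2.43 without siSON replicate 2) and IPO8 (0.24 without siSON replicate 1) were called when that library was left out; KPNA7 was also called by limma-voom and with library size alone, and IPO8 and NUP107 without a low-count filter. The correlation of deviations was 0.194, 0.0461 and 0.118 for same-numbered libraries, which did not reach the bar of 0.1 in each pair, although every library correlated best with its own number. Under a replicate block the calls numbered 45 (34 up, 11 down), among them all 42, together with NUP107 (-0.16), KPNA2 (0.12) and IPO8 (0.15). With the block SON had a log2 fold change of -2.14, the median was 0.34 and 46 other transport genes were called. Depth limits NUP210, KPNA7 and IPO4, with 7 to 19, 1 to 30 and 6 to 34 counts per library.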

Other observations

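Pseudogenes named after members were counted separately in the table. IPO5P1, a transcribed processed pseudogene, had 131, 95 and 128 counts in siControl and 17, 28 and 19 in siSON (log2 fold change -2.08, edgeR adjusted p 3.18e-05), whereas its parent IPO5 was not called (adjusted p 0.847). XPOTP1 had 3, 2 and 5 counts in siControl and 18, 14 and 16 in siSON (log2 fold change 2.59, edgeR adjusted p 0.000665), the direction of its parent XPOT. IPO5P1 and XPOTP1 were chosen after their values were seen, and whether reads of the parents were assigned to them was not tested.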
